A study of Mus musculus with 41 samples.

Results

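H3K27me3, the trimethylation of lysine 27 of histone H3, was compared between mouse primary myoblasts (MB) and the myotubes (MT) formed from them. The H3K27me3 peaks of both states on chromosomes 1 to 19 were merged, and each of the 18360 merged regions was classed as MB-only, MT-only or shared, a shared region holding peaks of both lists with at least 1 bp in common. The series held 41 CUT&Tag samples in 24 peak lists, across several cell types, tissues and histone marks, of which 3 samples and 2 lists are the H3K27me3 data of MB and MT. MB were primary muscle stem cells of C57BL/6 mice grown in culture without further treatment, and MT were the same kind of cells after a switch to low-serum differentiation medium, in which they fuse and leave the cell cycle. The MB list came from 1 library and the MT list from 2 libraries whose coverage was combined before peaks were called. With 1 peak list per state no test between states could be run, and differences in state, number of libraries and depth cannot be told apart. Intervals below are 95% Wilson intervals for a share and Newcombe intervals for a difference of shares, and they cover counting error only. Read numbers were not used here.

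Polycomb repressive complex 2, with EZH1 or EZH2 as its catalytic subunit, places H3K27me3, and the demethylases KDM6A and KDM6B remove it. The mark lies over promoters and broad domains of genes that a cell keeps silent, above all regulators of other lineages with CpG-rich promoters. In the muscle lineage, Pax7 marks stem cells, Myf5 and Myod1 commit them, and Myog, Mymk and the sarcomere genes are turned on as myoblasts become multinucleated fibres. H3K18la, the lactylation of lysine 18 of histone H3, was profiled in the same cells and is found at active promoters and enhancers.

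Promoters of 8 genes show the sequence that each class of promoter held. Each is the 250 bases before the RefSeq start of the gene (GRCm38.p6), 5′ to 3′ on the strand of the gene, with every CG dinucleotide in capitals, since CpG content differed between the classes. Acta1 (chr8:123894776-123895025, minus strand), skeletal muscle actin, Mylk3 (chr8:85365325-85365574, minus strand), a myosin light chain kinase, and Adamts2 (chr11:50601835-50602084, plus strand), a procollagen peptidase, lay wholly in an H3K27me3 peak of MB and in none of MT.
Acta1: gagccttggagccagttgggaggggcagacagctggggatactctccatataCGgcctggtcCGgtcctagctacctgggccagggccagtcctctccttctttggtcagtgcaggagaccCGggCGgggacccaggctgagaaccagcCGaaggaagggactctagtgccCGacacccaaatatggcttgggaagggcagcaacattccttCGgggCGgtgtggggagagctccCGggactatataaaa
Mylk3: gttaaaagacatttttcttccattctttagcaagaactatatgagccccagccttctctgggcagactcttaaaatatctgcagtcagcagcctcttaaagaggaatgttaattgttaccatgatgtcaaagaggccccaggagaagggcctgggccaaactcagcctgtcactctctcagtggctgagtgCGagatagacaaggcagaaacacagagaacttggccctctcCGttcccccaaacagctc
Adamts2: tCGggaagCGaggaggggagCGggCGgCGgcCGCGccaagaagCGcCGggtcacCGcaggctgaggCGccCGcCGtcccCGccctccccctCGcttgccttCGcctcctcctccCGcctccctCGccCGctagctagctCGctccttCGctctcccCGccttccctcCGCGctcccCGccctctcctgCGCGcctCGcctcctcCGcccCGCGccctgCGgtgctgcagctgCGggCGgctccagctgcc
Mef2c (chr13:83523406-83523655, plus strand), a transcription factor of muscle differentiation, and Krt24 (chr11:99285263-99285512, minus strand), a keratin, lay wholly in an MT peak and in none of MB.
Mef2c: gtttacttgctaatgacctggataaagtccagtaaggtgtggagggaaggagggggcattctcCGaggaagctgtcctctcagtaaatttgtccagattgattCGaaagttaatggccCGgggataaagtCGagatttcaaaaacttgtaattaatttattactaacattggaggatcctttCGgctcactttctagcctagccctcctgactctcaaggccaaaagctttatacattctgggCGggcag
Krt24: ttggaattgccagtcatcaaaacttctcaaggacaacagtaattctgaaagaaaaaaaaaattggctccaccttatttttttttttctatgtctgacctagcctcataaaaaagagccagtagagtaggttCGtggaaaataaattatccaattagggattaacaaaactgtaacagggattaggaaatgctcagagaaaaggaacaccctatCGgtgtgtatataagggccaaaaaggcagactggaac
Hoxb4 (chr11:96318017-96318266, plus strand), a positional regulator, and Wnt3a (chr11:59290752-59291001, minus strand), a secreted signal, were covered in full in both states.
Hoxb4: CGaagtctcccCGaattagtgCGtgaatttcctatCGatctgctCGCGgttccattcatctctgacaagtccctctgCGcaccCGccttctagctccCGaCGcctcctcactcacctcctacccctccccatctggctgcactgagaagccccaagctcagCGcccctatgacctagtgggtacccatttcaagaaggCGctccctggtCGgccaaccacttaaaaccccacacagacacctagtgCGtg
Wnt3a: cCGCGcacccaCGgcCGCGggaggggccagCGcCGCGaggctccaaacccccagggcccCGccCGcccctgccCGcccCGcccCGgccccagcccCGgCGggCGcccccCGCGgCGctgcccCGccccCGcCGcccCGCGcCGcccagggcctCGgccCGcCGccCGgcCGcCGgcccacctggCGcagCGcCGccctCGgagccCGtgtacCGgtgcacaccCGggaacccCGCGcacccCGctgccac
Myog (chr1:134289754-134290003, plus strand), a myogenic regulator, held H3K27me3 in neither state and was covered in full by an MT H3K18la peak.
Myog: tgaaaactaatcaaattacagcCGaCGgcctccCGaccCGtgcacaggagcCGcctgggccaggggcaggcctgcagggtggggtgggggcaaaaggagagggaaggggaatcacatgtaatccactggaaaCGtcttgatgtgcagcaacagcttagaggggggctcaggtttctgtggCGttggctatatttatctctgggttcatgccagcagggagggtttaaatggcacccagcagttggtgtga
The number of CG dinucleotides was 9 in Acta1, 2 in Mylk3, 34 in Adamts2, 6 in Mef2c, 2 in Krt24, 14 in Hoxb4, 41 in Wnt3a and 7 in Myog. Of 25748 RefSeq promoters of this length, 43.4% held as many as Acta1 or more, 4.13% as many as Adamts2, 53.1% as many as Mef2c, 32.4% as many as Hoxb4 and 1.3% as many as Wnt3a.

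The labels were first set against marker genes, read as an H3K18la peak and no H3K27me3 peak at the promoter, 2000 bp on each side of a transcription start site. Of 10 myoblast markers 8 passed in MB and 8 in MT, and of 12 myotube markers 4 passed in MB and 10 in MT. The markers of other cells passed for 4 of 12 fibroblast genes in MB and 5 in MT, for 0 of 8 macrophage genes in MB and 3 in MT, and for 1 of 7 adipocyte genes in each. The MT H3K18la list was the longer of the pair, with 33496 peaks against 13358 in MB, so for H3K18la the state and the length of the list cannot be told apart. An H3K18la promoter peak was present at 11.5% of all protein-coding genes in MB and 35.8% in MT, against which these counts are to be read. The part of other cells in the results below was not tested. Chromosome 2 held 17.1% of the in-peak H3K27me3 signal of MB and 15.5% of that of MT, against 7.39% of the length of the autosomes and 10.0% of the signal in gastrocnemius muscle (GAS). No cause for the share of chromosome 2 was tested, and without it 38.2% of the merged regions were shared, against 38.9% with it.

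MT H3K27me3 peaks covered more of the genome than those of MB. The MB list held 13553 peaks over 53.8 Mb with a median width of 2718 bp (quartiles 1986 and 4570 bp), and the MT list 17135 peaks over 162 Mb with a median width of 6105 bp (quartiles 4232 and 10810 bp). The widest peak was 97610 bp in MB and 189300 bp in MT. Peak calling kept the top 1% of enriched blocks, so the number and the floor of the peaks were set within each list. The lowest total signal of a peak, the coverage summed over its bases, was 10074 in MB and 35957 in MT. Signal was not scaled for depth, and total signal is compared below only by its rank within a list.

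Most of the MB bases, 91.5%, lay within MT peaks, while over 50% of the MT peaks had no counterpart in MB. Of 18360 merged regions, 7137 were shared (38.9%, interval 38.2 to 39.6), 9909 were MT-only (54.0%) and 1314 were MB-only (7.16%). Counted by peaks, 90.3% of MB peaks (interval 89.8 to 90.8) overlapped an MT peak, and 42.2% of MT peaks (interval 41.4 to 42.9) overlapped an MB peak. These shares were 88.8% and 18.1% when at least 50% of a peak had to be covered, and 39.1% and 98.1% with equal bases in both lists. Shared regions covered 105 Mb, MT-only regions 58.6 Mb and MB-only regions 3.21 Mb. MT-only regions also outnumbered MB-only regions with the peaks above the median maximum signal of each list (4760 against 892). The order was the opposite with the MT list reduced to its 1713 strongest peaks, which cover 53.8 Mb as the MB list does, where 8258 regions were MB-only, 32 MT-only and 1661 shared. With the 5000 peaks of largest total signal in each list, 774 regions were MB-only (13.5%), 2218 MT-only (38.6%) and 2749 shared (47.9%). At that limit the last MB peak kept had a total signal of 27261 and the next 27258, and the last MT peak 157346 and the next 157308.

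**Figure D1:**
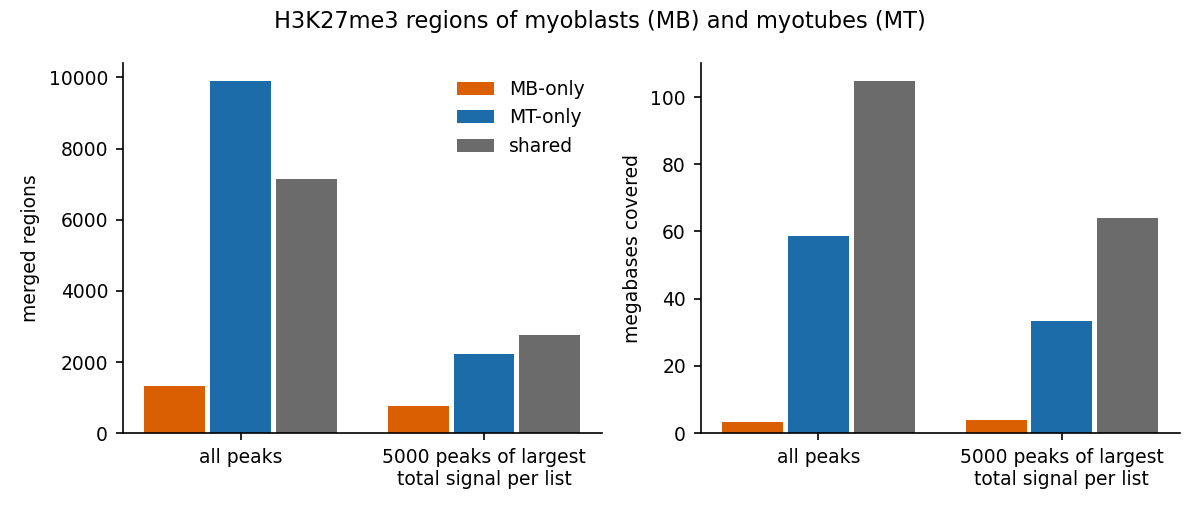
Number of merged H3K27me3 regions (left, regions) and megabases they cover (right, Mb) for MB-only, MT-only and shared regions, from all peaks and from the 5000 peaks of largest total signal in each list. From all peaks, the 9909 MT-only regions outnumber the 7137 shared regions but cover 58.6 Mb against 105 Mb.

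Overlap rose with the rank of the signal in both lists. With each list cut into 10 equal classes of total signal, 79.6% of the MB peaks of the lowest class overlapped an MT peak, and 99.3% of those of the highest. Among MT peaks the share went from 9.92% in class 1 to 49.6% in class 7 and 98.1% in class 10. Peaks found in 1 state were therefore on the whole narrow members of their lists with low total signal, which is summed over width. Median maximum signal was 19 in MB peaks with no MT counterpart against 23 in those with one. In MT peaks it was 42 against 69. MB peaks with no MT counterpart had a median width of 2120 bp against 2852 bp for those with one, a median percentile of 26.2 against 53.1, and 4.38% of the in-peak signal of MB. MT peaks with no MB counterpart had a median width of 4878 bp against 10391.5 bp, a median percentile of 33.1 against 76.3, and 26.4% of the in-peak signal of MT.

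**Figure D2:**
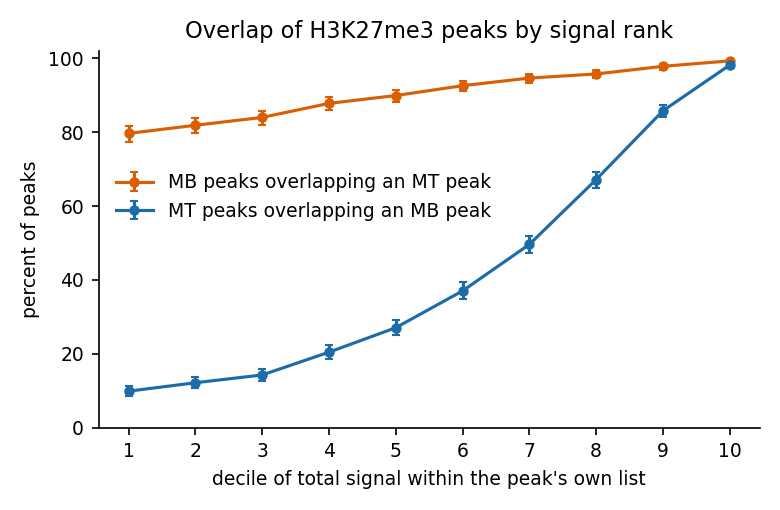
Percent of H3K27me3 peaks that overlap a peak of the other state (y axis), by class of total signal (10 equal classes) within the list the peak belongs to (x axis, 1 lowest and 10 highest). Points are shares and bars 95% Wilson intervals; MB peaks run from 79.6% to 99.3% and MT peaks from 9.92% to 98.1%.

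Where both states carried the mark, MT domains were broader. In the shared regions MB peaks covered 50.6 Mb and MT peaks 104 Mb, of which 49.2 Mb lay in both, so that 97.3% of these MB bases were also MT bases and 47.5% of the MT bases were also MB bases. MT covered more bases than MB in 6828 of the 7137 shared regions (95.7%) and fewer in 304 (4.26%). The median log2 ratio of MT to MB bases was 1.11 (quartiles 0.59 and 1.74). In 2562 shared regions (35.9%) a single MT peak spanned at least 2 MB peaks, and up to 23 MB peaks fell in 1 region, whereas a single MB peak spanned at least 2 MT peaks in 31 regions. Shared regions had a median width of 10695 bp, MT-only regions 4878 bp and MB-only regions 2120 bp. MB-only regions lay a median of 9227 bp from the nearest MT peak and 38.2% of them within 5000 bp, and MT-only regions a median of 35768 bp from the nearest MB peak and 12.1% within 5000 bp. The MT list covered 162 Mb and the MB list 53.8 Mb, so these distances are not on equal terms, and no background distance was computed.

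**Figure D3:**
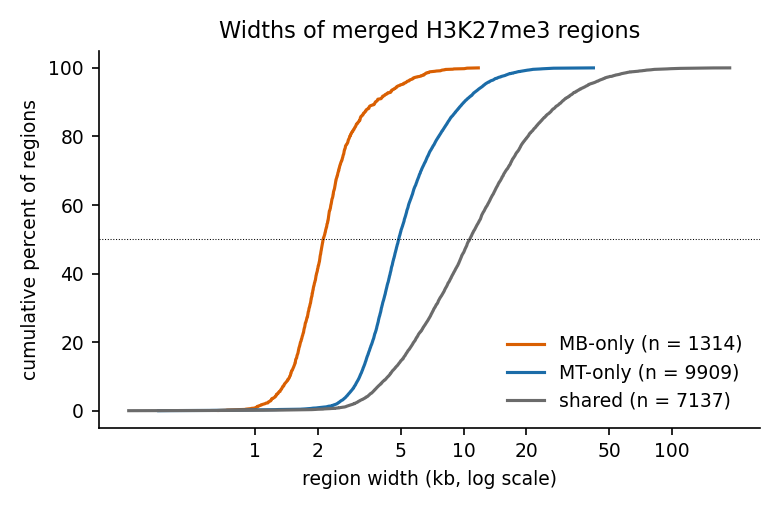
Cumulative percent of merged regions (y axis) by width (x axis, kb, log scale) for MB-only, MT-only and shared H3K27me3 regions, with a dotted line at 50%. The curves cross it at 2120, 4878 and 10695 bp, in that order.

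The regions of largest signal, in mm10 coordinates, show the kinds of domain in each class. The leading shared regions lay over Rhcg, an ammonium transporter (chr7:79486344-79619613, 114723 bp in MB and 133270 bp in MT), over Hoxb1 to Hoxb9 (chr11:96229780-96387612, 122341 and 152908 bp), over Wnt6 and Wnt10a (chr1:74759193-74911316, 109738 and 152124 bp) and over Pax2, a regulator of kidney and ear (chr19:44713157-44855274, 91092 and 142118 bp). Frmd4a, a scaffold protein gene, held the widest MT peak, 189300 bp, over 109171 bp of MB peaks. In each of these 5 regions the MT coverage was the wider. The largest MB-only regions were smaller. Among the 8 with most signal, 3 lay in the body of Lgr6, an R-spondin receptor, with widths of 10395, 6790 and 7128 bp and gaps to the nearest MT peak of 15954, 811 and 974 bp. Others lay in Col15a1 (8883 bp, gap 5790 bp), Klhl29 (10235 bp, gap 5179 bp), Efcc1 (7746 bp, gap 19052 bp) and Adamts2 (10067 bp, gap 1368 bp). The region farthest from the MT list was intergenic, chr2:137325103-137333250, with 208459 bp to Jag1 as its nearest gene and 424954 bp to the nearest MT peak, and it carried an MT H3K18la peak. Of the 8 largest MT-only regions, those over Slc5a4a (41987 bp, gap 159656 bp), Cyp4f39 (40787 bp, gap 3375 bp) and Tnr (32511 bp, gap 18548 bp), which encode a glucose sensor of the sodium cotransporter family, a cytochrome P450 and the matrix protein tenascin-R, overlapped H3K27me3 peaks of GAS, as did 7 of the 8 in all and 39.4% of all MT-only regions. The remaining one, the region at Ankub1 (35524 bp, gap 186905 bp), overlapped no other list examined.

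Shared regions, which were the widest, held promoters more often than one-state regions. A promoter lay in 53.1% of shared regions (interval 51.9 to 54.2), in 30.7% of MB-only regions (28.3 to 33.3) and in 26.0% of MT-only regions (25.1 to 26.9). Shared regions exceeded MB-only regions by 22.3 points (19.5 to 25.0) and MT-only regions by 27.1 points (25.7 to 28.5), over regions of unequal width. At matched width the share in shared regions was 43.5% of 23 against 26.7% of 536 MB-only regions between 1000 and 2000 bp, 35.2% against 32.6% between 2000 and 3000 bp, 31.7% against 32.1% between 3000 and 4000 bp and 33.4% against 36.5% between 4000 and 6000 bp, and in MT-only regions of these widths it was 15.9%, 23.1%, 22.8% and 22.6%. Per Mb covered, shared regions with a promoter numbered 36.1, MB-only 126 and MT-only 43.9. MB-only regions exceeded MT-only regions by 4.76 points (2.17 to 7.45), and this order was the opposite with the 5000 strongest peaks, where 44.2% of MB-only and 50% of MT-only regions held a promoter (difference -5.81 points, -9.85 to -1.73). It was also the opposite with equal bases in both lists (-17.6 points) and with the peaks above the median maximum signal of each list (-6.71 points). Width moved with these shares. At matched width the MB-only share was above the MT-only share, over 536 MB-only and 632 MT-only regions between 2000 and 3000 bp and over 85 and 3802 between 4000 and 6000 bp. Outside promoters, 36.8% of MB-only, 29.7% of MT-only and 22.5% of shared regions lay in gene bodies, and 32.5%, 44.3% and 24.4% were intergenic. MT-only regions were the poorest in CpG, with a median of 8.63 CpG per kb against 11.3 in MB-only and 11.3 in shared regions, and a median GC content of 43.7% against 48.0% and 46.3%.

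H3K18la peaks of MT lay more often at MB-only than at MT-only regions. An MT H3K18la peak overlapped 155 MB-only regions (11.8%), 291 MT-only regions (2.94%) and 541 shared regions (7.58%), against 5.38% of all regions. MB-only exceeded MT-only regions by 8.86 points (7.19 to 10.7). MT-only regions lie by definition in MT H3K27me3 peaks and MB-only regions outside them. A difference in H3K18la of MT is therefore not independent of how the classes were made. The difference held in the regions 2000 to 3000 bp wide (11.4% against 1.90%) and 4000 to 6000 bp wide (15.3% against 2.76%), though not between 1000 and 2000 bp (9.14% of 536 against 9.52% of 63). With 10000 H3K18la peaks per list the difference was 4.08 points (2.98 to 5.42). With the H3K27me3 peaks above the median maximum signal of each list it was 5.87 points (3.96 to 8.08). With equal bases in both lists, which leaves 32 MT-only regions, it was -4.24 points (-19.1 to 1.91). H3K18la of MB overlapped few H3K27me3 regions of any class, 0.46% of MB-only, 0.30% of MT-only and 0.63% of shared regions, and MB-only and MT-only differed by 0.15 points with an interval that includes 0 (-0.13 to 0.70). With equal bases that difference was -2.75 points (-15.4 to -0.17). In GAS, MB-only regions also carried H3K18la (17.4% against 6.29% of MT-only regions) and H3K27ac, a mark of active enhancers (18.9% against 8.22%), more often, by 11.1 points (9.05 to 13.3) and 10.6 points (8.55 to 12.9).

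The H3K27me3 lists of other cells overlapped the shared regions most. GAS H3K27me3 peaks met 72.0% of shared, 39.4% of MT-only and 35.8% of MB-only regions. In the other lists MB-only regions were met more often than MT-only regions: 33.0% against 15.7% in serum-grown embryonic stem cells (mESC-ser), 44.3% against 22.2% in stem cells grown in 2i medium (mESC-2i), 27.2% against 16.9% in bone marrow-derived macrophages (BMDM) and 29.8% against 17.6% in post-ischemia macrophages (PIM). The difference was 17.2 points in mESC-ser and 22.1 points in mESC-2i, and in GAS -3.63 points. At matched width the GAS shares of MB-only and MT-only regions were 35.6% and 41.3% between 1000 and 2000 bp, 34.9% and 35.9% between 2000 and 3000 bp, 45.5% and 32.9% between 3000 and 4000 bp and 29.4% and 35.5% between 4000 and 6000 bp, so the direction in GAS varied with width. Over the 21 pairs of 7 H3K27me3 lists of the series, MB and MT had the second highest Jaccard index, bases in both over bases in either, with 0.295, after BMDM and PIM with 0.446 and before mESC-ser and mESC-2i with 0.273. The share of merged regions held in common was 38.9% for MB and MT, 40.6% for BMDM and PIM, 28.9% for the stem cell pair and 24.1% for MT and GAS. For H3K18la of MB and MT it was 28.0%. The share of the peaks of the first list overlapped by the second was 90.3% for MB H3K27me3 by MT, 82.3% for MB H3K18la by MT, 67.6% for BMDM by PIM and 52.3% for mESC-ser by mESC-2i. In the other direction it was 42.2% for MT H3K27me3 by MB, 30.6% for MT H3K18la by MB, 56.1% for PIM by BMDM and 44.3% for mESC-2i by mESC-ser. These shares depend on the extent of each list, which was 53.8 Mb in MB, 162 Mb in MT, 98.0 Mb in BMDM and 101 Mb in PIM.

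**Figure D4:**
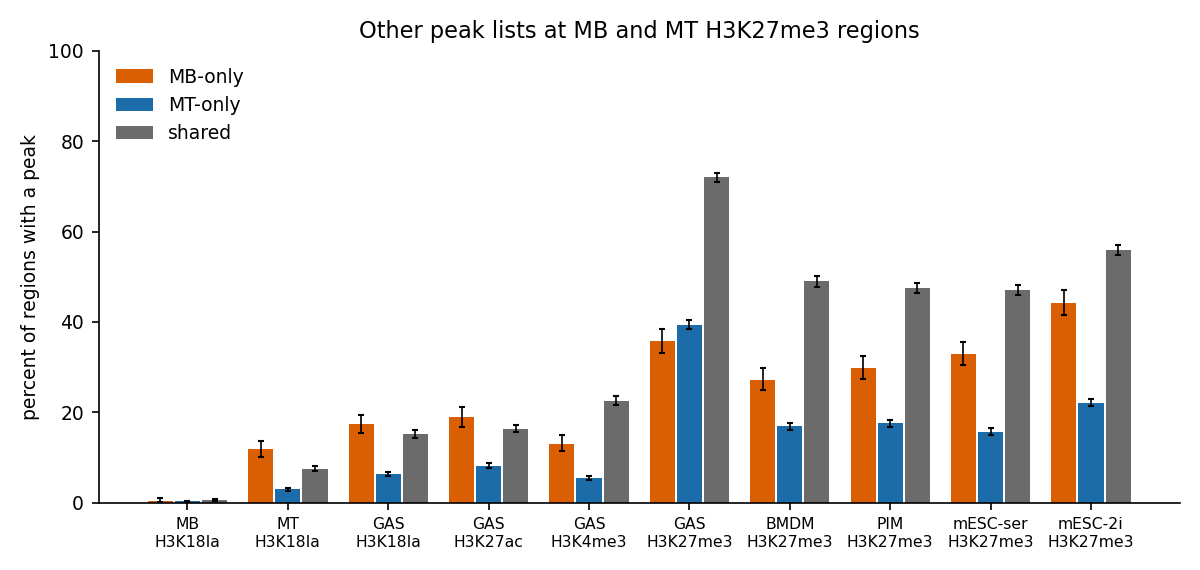
Percent of MB-only, MT-only and shared H3K27me3 regions (y axis) that overlap a peak of each of 10 other lists (x axis), with 95% Wilson intervals as bars. MB H3K18la is under 1% in each class, MT H3K18la is highest at MB-only regions (11.8%), and GAS H3K27me3 is highest at shared regions (72.0%).

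At promoters of the 20780 protein-coding genes, most genes marked in MB were marked in MT too. A promoter peak was present in both states at 2475 genes (11.9% of all genes), in MT only at 1637 (7.88%) and in MB only at 183 (0.881%). It was absent in both states at 16485 genes (79.3%). With 5000 peaks per list 236 genes were MB-only and 1004 MT-only. With equal bases in both lists the order was the opposite, 1498 MB-only and 172 MT-only genes. The shares from all peaks are the background for the gene groups below. MB-only genes were supported by peaks of middle rank, with a median percentile of 42.8 against 80.8 for the MB peaks of genes marked in both, and 18 of the 183 rested on peaks in the lowest of the 10 signal classes of the MB list. MT-only genes had a median percentile of 57.6 against 88.8. For 480 of the MT-only genes (29.3%) the MT peak itself overlapped an MB peak outside the promoter, so that the domain was in both lists and reached the promoter in MT, and this was so for 10 MB-only genes (5.46%).

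The classes differed in promoter sequence. High-CpG promoters, with a window of CpG ratio over 0.75 and GC content over 55%, made up 59.0% of MB-only genes, 56.8% of genes marked in both and 38.6% of MT-only genes, against 54.6% of all genes. The median number of CG dinucleotides in the 250 bases before the start was 18 in MB-only, 9 in MT-only and 14 in genes marked in both, against 15 over all genes. Krt24 and Mef2c, printed above, fall below the MT-only median of 9, while Adamts2 is above the MB-only median and Acta1 and Mylk3 below it. MB-only genes held an MT H3K18la promoter peak in 37.7% of cases, MT-only genes in 19.7%, genes marked in both in 13.6% and genes marked in neither in 40.7%. H3K18la present in MT and not in MB was found at 59 of the 183 MB-only genes, 32.2% (interval 25.9 to 39.3), against 25.2% of all genes, 28.3% of genes without H3K27me3 in either state, 15.3% of MT-only genes and 10.9% of genes marked in both. The interval of the MB-only genes takes in the share of unmarked genes and lies above that of genes marked in both. The opposite pattern, H3K18la in MB and not in MT, was found at 5 of 1637 MT-only genes, 0.31%, against 0.91% of all genes.

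Many MB-only genes were marked in other lists. H3K27me3 of mESC-ser was present at 78.1% of MB-only genes, 73.9% of genes marked in both, 36.0% of MT-only genes and 19.2% of genes marked in neither. MB-only exceeded MT-only genes by 42.2 points (35.2 to 48.0), and differed from genes marked in both by 4.28 points (-2.47 to 9.94). In GAS, 58.5% of MB-only, 51.5% of MT-only and 81.9% of genes marked in both held the mark.

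Among the MB-only genes with most promoter signal were Tbc1d12, Lgr6, Mylk3, Sost, Efcc1, Adamts2, Ace, Nptx1 and Dph1. At Mylk3, MB peaks of 2545, 7843 and 5167 bp covered its starts, the strongest at percentile 89.64, the nearest MT H3K27me3 peak was 19418 bp from its promoters, and MT H3K18la peaks lay at chr8:85366891-85368806 and chr8:85377857-85382807. Sost encodes a Wnt inhibitor secreted by bone cells and Ace the angiotensin-converting enzyme. At Tbc1d12, Lgr6 and Sost an MB promoter peak overlapped an MT peak outside the promoter, and the MT list came to within 927, 6263 and 1096 bp of the promoter. The MT-only genes with most signal were Gm10803, Pdrg1, Mpzl3, Adamtsl2, Tubgcp3, 5730409E04Rik, Dhrs4, Tollip, Oat and Lcn4. All 10 had their MT peak overlap an MB peak elsewhere, with distances from the promoter to the MB list of 136 bp at Pdrg1 to 8865 bp at Tubgcp3. These genes were ranked by signal, and 98.1% of the MT peaks in the highest signal class overlapped an MB peak. At Pdrg1, a prefoldin-related gene, the MT peak was 64514 bp wide (chr2:153015226-153079739).

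Of the 39 Hox genes, which set position along the body axis, 20 were marked in both states and none in 1 state: 10 of 10 Hoxb genes, 9 of 9 Hoxd genes, Hoxa13 of 11 Hoxa genes and 0 of 9 Hoxc genes. The promoters of Hoxb4, Hoxb5, Hoxb8 and Hoxb9 lay in the strongest MB peak (chr11:96249867-96347476, 97610 bp), over which MT had narrower peaks, the widest of 34842 bp at Hoxb4, Hoxb5 and Hoxb8 and of 41999 bp at Hoxb9. H3K18la marked 6 Hoxa genes in MB and 3 in MT, 4 Hoxc genes in each and 0 Hoxb and Hoxd genes in both, and in mESC-ser all 39 Hox promoters carried H3K27me3. Over all genes the shares were 11.5% for MB H3K18la, 35.8% for MT H3K18la and 27.6% for mESC-ser H3K27me3. Of 83 other homeobox and paired-box regulators 54 were marked in both, 6 in MT only and 0 in MB only. Lhx4 and Dlx6, regulators of neural and craniofacial development, had widest peaks of 37523 and 22030 bp in MB and 55169 and 49034 bp in MT, and Irx1, Emx2, Dlx4 and Pitx3 were among the MT-only genes, with peaks of 7080 to 11847 bp. At Emx2 and Dlx4 these peaks ended 311 and 905 bp from the nearest start, and an MT H3K18la peak covered a start. Of 79 Sox, Fox, T-box and GATA factors 35 were marked in both, 3 in MT only (Tbx19, Gata3 and Sox11) and 2 in MB only (Foxq1 and Tbx2, with MB peaks of 2489 and 1980 bp). Gata3 also held an H3K18la peak over a start in both states.

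Ligands of developmental pathways followed. Of 19 Wnt ligands 13 were marked in both states, 2 in MB only and 0 in MT only. Wnt7a, known to drive growth of satellite cells, had widest peaks of 17072 bp in MB and 70384 bp in MT, and Wnt3a of 22469 and 69190 bp. The MB-only members Wnt16 and Wnt5b stood low in the MB list, at percentiles 19.55 and 7.82. Of 20 Fgf ligands 9 were marked in both and 3 in MT only, Fgf12, Fgf23 and Fgf10, the last a limb bud signal (MT percentile 36.18). Of 34 genes for BMP and GDF ligands and their inhibitors 7 were marked in both. Bmp2 and the BMP inhibitor Nog were MT-only, at percentiles 56.62 and 72.59, and Bmp4 and the inhibitor Chrd MB-only, at 1.08 and 40.19. Bmp4 rested on a peak of total signal 10161, next to the floor of 10074 of the MB list, with an MT H3K18la peak over the same promoter (chr14:46385418-46388924). Of 26 Notch pathway genes 7 were marked in both. The ligand Dll1 and the target Hey1 were MT-only, at percentiles 84.16 and 42.56, and the ligand Jag1 MB-only, at 9.25. Their H3K27me3 peaks ended 492, 843 and 587 bp from the nearest start. In MT an H3K18la peak covered a start of Dll1 (chr17:15370644-15376878) and of Jag1, and another lay 202 bp from a Hey1 start. Of the MB-only members of these pathways, Wnt5b, Bmp4 and Jag1 stood under percentile 10 of the MB list.

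Among 28 myogenic regulators 4 were marked in both states (14.3%), 2 in MT only (7.14%) and 0 in MB only. These shares are near the 11.9%, 7.88% and 0.881% of all genes, so the genes below are single cases. Myod1, Myf5 and Myog held no H3K27me3 promoter peak in either state, and an MT H3K18la peak spanned the Myog start (chr1:134282170-134295031). Pax7, the stem cell regulator, was marked in both, by an MB peak of 6756 bp that reached to 1449 bp from a start (chr4:139824803-139831558) and an MT peak of 28652 bp that covered one (chr4:139811137-139839788). Barx2, a homeobox factor of satellite cells, had peaks of 15112 bp in MB and 24526 bp in MT, and Eya2 of 3945 and 38743 bp. Mef2c was MT-only (chr13:83514896-83526570, 11675 bp, percentile 69.55), while MT H3K18la peaks covered other starts of the gene (chr13:83502385-83507607 and chr13:83650860-83653125). Mymk, the fusion protein myomaker, was MT-only as well (chr2:27065408-27078166, 12759 bp, percentile 70.5), and the same promoter lay in an MT H3K18la peak (chr2:27067880-27086839), so both marks were called there in MT. Cav3, the muscle caveolin, had an MT H3K27me3 peak of 9400 bp that ended 869 bp from its start (chr6:112449237-112458636) and overlapped an MT H3K18la peak over the start (chr6:112453285-112466368).

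Of 55 sarcomere genes 42 had no H3K27me3 promoter peak (76.4%), against 79.3% of all genes. In both states 8 were marked (14.5%, against 11.9% of all genes), in MB only 3 (5.45% against 0.881%) and in MT only 2 (3.64% against 7.88%). MT H3K18la marked 45 of the 55 genes against 12 in MB. Over all genes the shares were 35.8% in MT and 11.5% in MB. Acta1, printed above, was MB-only. Its MB peak (chr8:123893087-123895209) was 2123 bp wide with a maximum signal of 24 and stood at percentile 37.65 of the MB list, and in MT a 20696 bp H3K18la peak covered the gene (chr8:123878468-123899163). Myh2, a fast myosin heavy chain, and Myoz3, a Z-disc protein, were the other MB-only members, with peaks of 2613 and 3870 bp. Ttn, the titin gene, and Tnni3, cardiac troponin I, were MT-only, at percentiles 38.07 and 11.46. Myl3, Myh6, Myh7 and Myl2, which serve heart and slow muscle, were marked in both, and each had a wider peak in MT, 19081 against 10049 bp at Myl3 and 13377 against 4265 bp at Myl2. In MT an 18301 bp H3K18la peak also covered a Myh7 start (chr14:54992276-55010576, percentile 98.6), and another lay 514 bp from a Myh6 start. Of 34 genes of muscle calcium handling and the neuromuscular junction 6 were marked in both, among them Pvalb, Ryr2, Ryr3 and Jph3, and Scn4a in MT only.

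Cell cycle genes were almost free of the mark. Of 45, 42 had no promoter peak in either state (93.3%), against 79.3% of all genes. Ccna1 and Ccnd2 were marked in both and Bub1, a spindle checkpoint kinase, in MT only (chr2:127832494-127848015, 15522 bp). The Bub1 peak ended 629 bp from the nearest start. At Ccnd2, H3K18la peaks lay 148 bp from a start in MB and 289 bp in MT. Of the 8 cyclin-dependent kinase inhibitors, which hold cells out of the cycle, Cdkn1c was marked in both, by 1858 bp in MB and 20530 bp in MT, and the other 7 in neither. That is 12.5% marked in both, against 11.9% of all genes. The 16 housekeeping genes had no promoter peak in either state. Of 31 genes for Polycomb proteins and H3K27 demethylases 4 were MT-only, Pcgf1, Cbx8, Epop and Rybp, with percentiles of 89.7, 87.4, 70.41 and 2.6, and Phf19 was marked in both.

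Of 91 potassium channel genes 48 were marked in both, 11 in MT only and 4 in MB only, and of 84 neurotransmitter receptor genes 24, 10 and 3. The MB-only shares, 4.40% and 3.57%, stand beside 0.881% of all genes. The 7 MB-only members of these groups, Kcnmb4, Kcnh2, Kcnk5, Kcnn1, Grin2d, Htr4 and Grik3, stood between percentiles 10.71 and 33.25. Of 49 keratin genes, structural genes of epithelia, 19 were marked in both, 9 in MT only and 0 in MB only, and Krt24 lay in an MT peak of 44637 bp (chr11:99262289-99306925). The MT-only share of the keratins was 18.4%, against 7.88% of all genes, and neighbouring keratins can share 1 peak, as Krt4, Krt79 and Krt76 did in MT. Of 1127 olfactory receptor genes 46 were MT-only, 34 in both and 1 in MB only. Of 42 collagen genes 16 were marked in both, 6 in MT only and 1 in MB only. At Col15a1 the strongest promoter peak stood at percentile 99.13 of the MB list and 85.33 of the MT list, with widest peaks of 13307 and 14756 bp. These are ranks within lists of unequal length and floor, not levels compared between states. Col1a1, the fibrillar collagen of fibroblasts, was MT-only on a 3928 bp peak at percentile 18.63. Of 12 fibroblast markers Tcf21 and Pdgfra were marked in both.

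Of 16 pluripotency genes 6 were marked in both, including Sox2 (38200 bp in MB and 53016 bp in MT), Pou5f1 and Tdgf1 in MT only, and Nanog in MB only on a peak at percentile 4.56. Of 17 macrophage and leukocyte genes 4 were marked in both, Lyz2 by peaks of 23620 and 42557 bp and Cd3e, Tyrobp and Itgam by narrower MB peaks of 1472 to 4860 bp, and Fcgr1 in MT only. Of 10 adipocyte genes Lep, Ucp1 and Plin1 were marked in both, by peaks of 3863 to 4859 bp in MB and 9284 to 29549 bp in MT. In cultures of many nuclei, a mark in fewer nuclei and a weaker mark in each cannot be told apart.

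**Figure D5:**
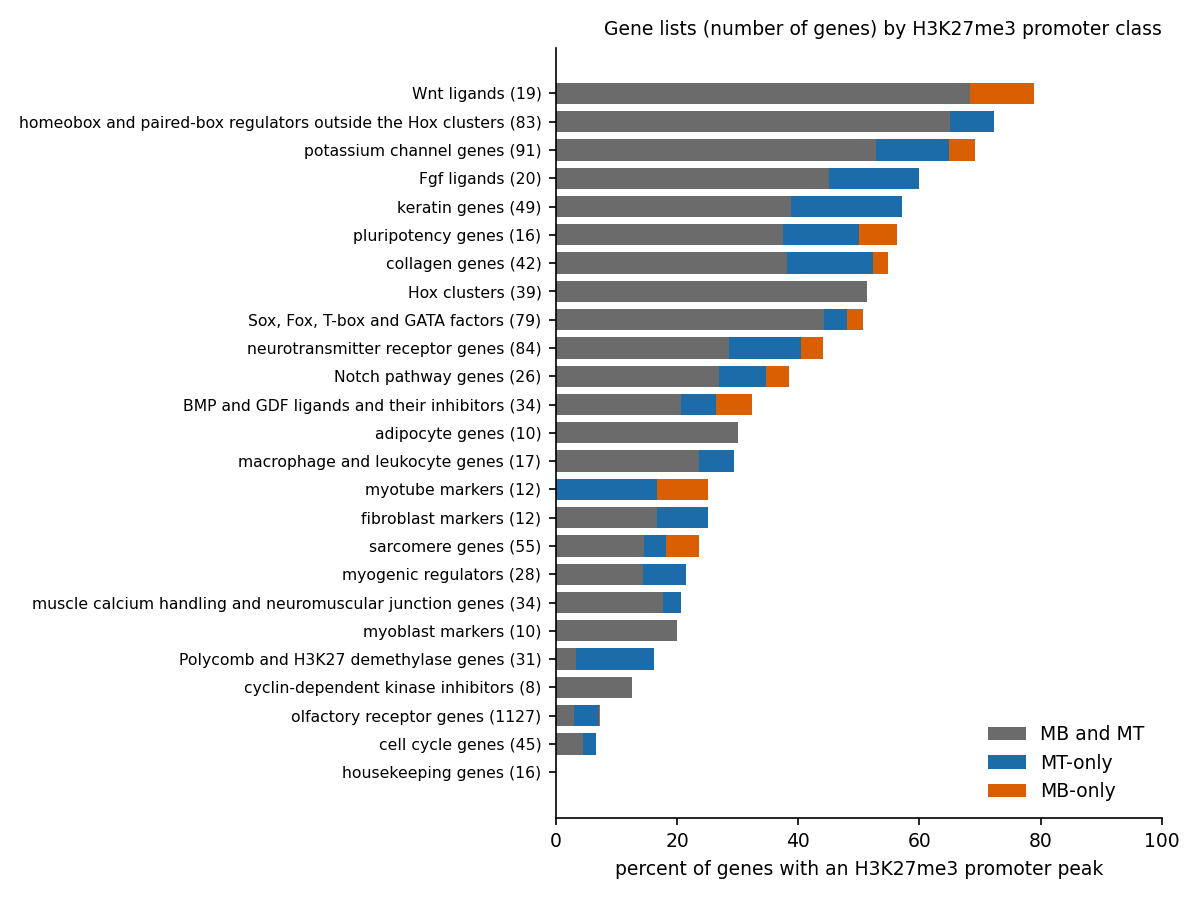
Percent of the genes of 25 lists (y axis, with the number of genes) that held an H3K27me3 promoter peak (x axis), split into genes marked in both states, in MT only and in MB only. Wnt ligands, homeobox regulators and potassium channel genes stand at the top with mostly shared marks, and cell cycle, olfactory receptor and housekeeping genes at the bottom.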

How the data were processed

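Histone marks were profiled by CUT&Tag, in which an antibody-tethered transposase tags DNA at a mark. The authors trimmed reads with Trim Galore 0.6.6, aligned them to mm10 with Bowtie2 2.4.4 and handled them with SAMtools 1.13 and bedtools 2.30, per the submitters' processing notes and the study's methods. Coverage of replicates was combined and peaks were called with SEACR 1.3 (stringent, top 1%). The deposited lists give total and maximum signal per peak, in coverage not scaled for depth. Each list covers all libraries of its mark and cell type, and the lists of other marks and cells entered only as overlaps.

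Peaks on chromosomes 1 to 19 were merged in Python 3.11.15 with numpy 2.4.6 and pandas 2.3.3, and scripts were tested on simulated lists. Promoters were 2000 bp on each side of starts in GENCODE release M21. CpG class used 500 bp windows over 1000 bp on each side of the start; high had CpG ratio over 0.75 and GC over 55%, low under 0.48. Sequences are RefSeq's. Coordinates are 1-based, mm10. Each percentile is the rank of total signal within its list. A gene's signal is that of its peaks together, and the percentile and width given are those of the strongest or widest peak. Named are the 8 regions of largest signal per class, the 10 genes of largest promoter signal per one-state class, up to 4 members per class of each of 25 gene lists, and any myogenic, myoblast, myotube or kinase inhibitor gene; a gene that the rule names is not reported here. The regions and gene lists were chosen with earlier results of these data known. Chromosomes X and Y and the mitochondrial genome were left out of the comparison. Alternatives were the 5000 strongest peaks, equal bases, other overlap, promoter and signal limits, joined peaks, chromosome X added, chromosome 2 left out, and 10000 H3K18la peaks.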

Additional observations from a re-analysis of the deposited data

Results flagged for a closer look

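The peaks on chromosome X, which lie outside the regions compared, differed between the lists. Chromosome X held 339 of 13893 MB H3K27me3 peaks, 2.44% (95% Wilson interval 2.20 to 2.71), and 1431 of 18567 MT peaks, 7.71% (7.33 to 8.10). Merged on chromosome X, 1208 of 1442 regions were MT-only, 221 shared and 13 MB-only. The share was 7.23% in GAS, 2.16% in mESC-ser and 1.01% in BMDM, and for H3K18la it was 1.42% in MB and 1.46% in MT. What sets the share of the X chromosome was not tested.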

How the results depend on the processing

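Of 74 values for 9 results under 11 other settings, 44 moved by less than their counting interval or stayed within 1.5 times the count, 26 moved and 4 changed sign in a result whose interval excluded 0. The MB H3K18la difference, whose interval included 0, also changed sign under 3 of the settings. Chromosome 2 left out and 10000 H3K18la peaks per list were chosen after seeing the data. With 5000 peaks per list, 84.5% of MB and 55.6% of MT peaks overlapped, 47.9% of regions were shared, the width ratio of shared to one-state regions was 1.54 (2.32 with all peaks), 1004 genes were MT-only, and the promoter difference of MB-only minus MT-only was -5.81 points. With equal bases, the lists gave 39.1% and 98.1% overlap, 16.7% shared, a width ratio of 11.1, 1498 MB-only and 172 MT-only genes, a promoter difference of -17.6 points, an MT H3K18la difference of -4.24 points (interval -19.1 to 1.91) and an MB H3K18la difference of -2.75 points (-15.4 to -0.17); fewer MT peaks by construction set these. With the peaks above the median maximum signal of each list, overlaps were 86.8% and 44.4%, 39.9% of regions were shared, the promoter difference was -6.71 points and the MT H3K18la difference 5.87 points. Joined within 5000 bp, overlaps were 94.4% and 56.7%, 43.7% were shared and the width ratio was 3.36. An overlap of at least 50% of a peak gave 88.8% and 18.1%. Chromosome X added gave 40.1% of MT peaks and 37.2% shared, chromosome 2 left out gave 41.4% of MT peaks, and 10000 H3K18la peaks gave an MT H3K18la difference of 4.08 points. The cause of the other changes was not tested. No paired analysis was possible because each state had 1 peak list, that of MT pooled from 2 libraries, and for the same reason no replicate could be left out. What read depth limits could not be read from the peak lists.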
